A study of Mus musculus with 6 samples.

Results

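A set of 9 genes of the extracellular ATP and adenosine pathway was followed in mouse regulatory T cells (Tregs): Entpd1, Nt5e, Adora2a, Ada, Adk, Dpp4, Pde3b, Slc29a1 and P2rx7. They were chosen by name for their roles, with earlier results of these data known, and all 9 were found among the 55840 genes of the deposited table. The study sequenced RNA of 6 Treg libraries, 3 of WT and 3 of Exon2KO mice. In the title of the series the second genotype is written Foxp3∆2, and the Tregs are said to be from spleen and lymph nodes. Foxp3 is the transcription factor that Tregs depend on, and the label refers to its exon 2. The labels give neither the age or sex of the mice, the number of mice behind a library, the way the cells were isolated, nor which organ a library came from, and name no treatment. Replicates are labelled as biological. Columns carry a number, 2, 6 or 20, once in each genotype, and libraries are named here by genotype and that number, such as WT 20.

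Cells under stress release ATP, which acts outside the cell as a danger signal on P2 receptors. The surface enzyme CD39, encoded by Entpd1, removes phosphates from ATP and ADP, and CD73, encoded by Nt5e, turns the AMP that results into adenosine. Adenosine binds the A2a receptor (Adora2a), which raises cyclic AMP (cAMP) and dampens T cells, and this pair of enzymes is one of the means by which Tregs restrain other T cells. The signal ends when adenosine is taken up (Slc29a1), deaminated (Ada) or phosphorylated (Adk), and phosphodiesterases such as Pde3b degrade cAMP.

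The libraries held between 17998216 and 21003496 counts, with 21183 to 22774 genes detected in each. The defining Treg and T cell markers were abundant, with Foxp3 at 602 to 783 CPM (counts scaled to a common library total) in WT and 684 to 925 CPM in Exon2KO libraries. Those counts cover the whole gene, so they do not check the deletion. Of the 4 Treg markers examined, Il2ra, Ctla4 and Ikzf2 were called lower in Exon2KO and Foxp3 was not called; the 4 summed to 1958 to 2365 CPM in WT and 1524 to 2003 CPM in Exon2KO libraries. Other cell types were rare: their 5 marker lists summed to at most 80.5 CPM (myeloid, WT 20) in a library. The first principal component (33.3% of the variance) set both libraries numbered 20 apart from the others. The second (29.8%) set the genotypes apart, with WT at 18.2 to 32 and Exon2KO at -35.4 to -14.3.

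Of the 9 genes, 3 differed between the genotypes. Entpd1 and Adora2a fell in Exon2KO, Pde3b rose, and the other 6 did not pass the threshold of an adjusted p under 0.05 (edgeR quasi-likelihood test, adjusted over 14919 tested genes). Over all tested genes 2.33% were called, 1.58% lower and 0.757% higher. With the column number as a replicate block Nt5e was called lower too (edgeR adjusted p = 0.035). That fit called 9.72% of all tested genes. The libraries of the 2 genotypes did not overlap for 3 of the 9, with Pde3b higher and Entpd1 and Adora2a lower. The same held for 17.7% of all tested genes, 8.35% higher and 9.32% lower. Log2 fold changes were negative for 7 genes and positive for 2, where 7193 of all 14919 tested genes were negative and 7726 positive. The median was -0.071 against 0.0084 over all tested genes. Adk, one of the 2 positive pathway genes at 0.0021, turned negative with upper-quartile scaling, which moved the median over all tested genes to -0.0068. All 9 passed the filter on low counts.

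**Figure D1:**
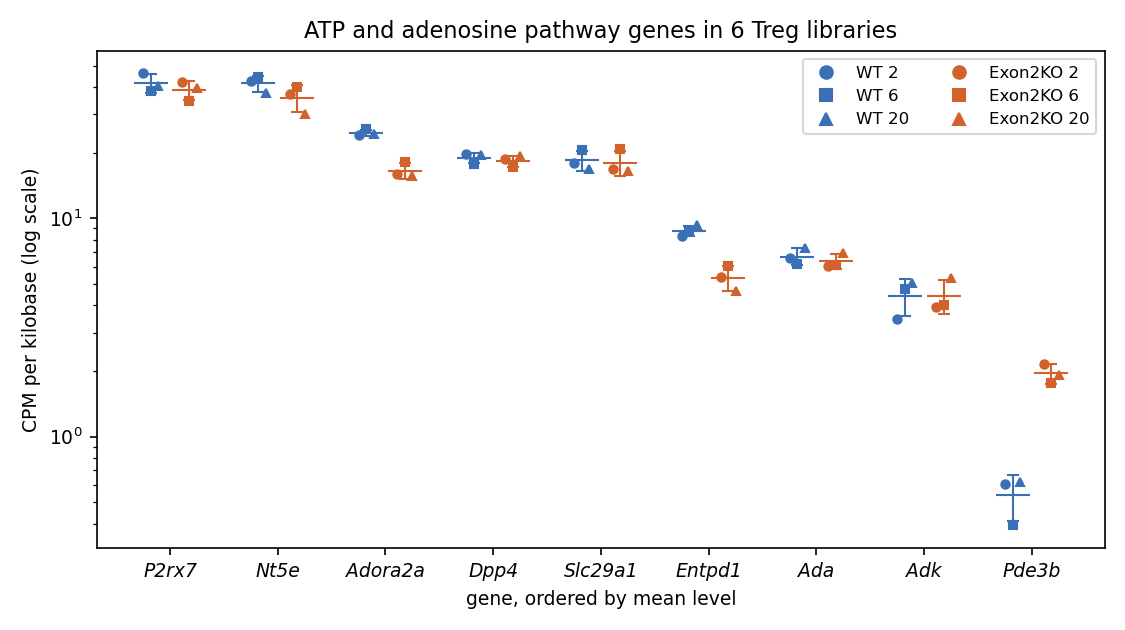
Level of each gene in CPM per kilobase of gene length (log axis) in the 6 libraries, ordered by mean level. Points are libraries (WT blue, Exon2KO orange; circle 2, square 6, triangle 20), bars are mean ± SD of 3 libraries; the genotypes separate for Adora2a, Entpd1 and Pde3b.

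The plot of levels by library spans a wide range. Levels of different genes were compared per kilobase, by dividing CPM by the gene length of the deposited table, which need not be the length of any 1 transcript. That length was 8602 bases for Nt5e, 8526 for Adk, 5580 for Entpd1 and 2002 for Ada. The longest coding transcript in GENCODE M21 has 3995, 1818, 4221 and 1688 bases in that order. The order of genes given here therefore holds for the deposited length only, and the place of Adk depends on it most. P2rx7 and Nt5e were the most abundant in WT, at 41.6 ± 4.06 and 41.5 ± 3.50 CPM per kilobase (SD, n = 3). They could not be ranked against each other, as their order also depends on the length used. Before division by length, Nt5e was at 357 ± 30.1 and P2rx7 at 249 ± 24.2 CPM in WT. Adora2a followed at 24.7 ± 0.827, above Dpp4 (19.0 ± 1.02) and Slc29a1 (18.5 ± 2.00 CPM per kilobase), which overlapped. Entpd1 stood at 8.77 ± 0.496, Ada at 6.69 ± 0.596 and Adk at 4.42 ± 0.834 CPM per kilobase, with no overlap between these 3 on the deposited length. Pde3b was the lowest at 0.541 ± 0.128 CPM per kilobase. In Exon2KO the order shifted at 2 places. Adora2a, at 16.6 ± 1.38 CPM per kilobase, no longer lay above Dpp4 (18.3 ± 1.08) or Slc29a1 (18.02 ± 2.37), and the ranges of the 3 genes overlapped. Entpd1, at 5.36 ± 0.710 CPM per kilobase, overlapped with Ada (6.37 ± 0.520) and Adk (4.43 ± 0.780).

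Entpd1 (ENSMUSG00000048120, chromosome 19, 40612366 to 40741602, plus strand, GRCm38) encodes CD39, the enzyme that starts ATP breakdown on the Treg surface. Its level was 46.3, 48.6 and 51.9 CPM in WT 2, 6 and 20, and 30.0, 33.8 and 25.9 CPM in Exon2KO 2, 6 and 20. Every Exon2KO library lay below every WT library. The transcript decreased by 38.9% (edgeR log2 fold change -0.71 with an SE of 0.11, adjusted p = 0.0127). Within the numbered pairs the log2 differences were -0.63, -0.52 and -1.002, the last in the pair numbered 20. In bulk RNA, fewer cells that carry a transcript and less of it per cell cannot be told apart. B cells and myeloid cells also express Entpd1. The 8 B cell markers summed to 40.2 to 45.9 CPM in WT and 33.4 to 35.6 CPM in Exon2KO libraries, and none of the 7 tested was called without a block. Cd79b, the most abundant of them, was at 22.9, 21.4 and 20.5 CPM in WT 2, 6 and 20 and 16.9, 14.004 and 14.6 CPM in Exon2KO 2, 6 and 20. It did not overlap between the genotypes, and was called lower with the column number as a replicate block (log2 fold change -0.51, edgeR adjusted p = 0.00501). The 9 myeloid markers summed to 35.3 to 80.5 CPM in WT and 30.5 to 65.3 CPM in Exon2KO libraries; Lyz2, which overlapped, was called lower with the block alone (-0.40, edgeR adjusted p = 0.0413). The part of these cells in the Entpd1 difference was not tested. The call was lost without WT 6 (edgeR adjusted p = 0.0528) and without Exon2KO 2 (0.0818), with the log2 fold change at -0.71 and -0.72; over all alternatives its adjusted p ran from 1.39e-05 to 0.334.

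Entpd1 was the only member of its surface enzyme family with more than a few reads: it made up 97.3% to 99.6% of the summed CPM per kilobase of Entpd1, Entpd2, Entpd3 and Entpd8 in every library. Entpd2, Entpd3 and Entpd8 had at most 5 counts in a library. That sum was 8.90 ± 0.525 in WT and 5.42 ± 0.658 CPM per kilobase in Exon2KO (SD, n = 3). GENCODE release M21 lists 11 Entpd1 transcripts, 4 of them protein coding, and RefSeq lists 2 starts, the downstream one within the gene as deposited. The deposited counts add up reads of both, so the fall is not assigned to either. The 250 bases before each start are shown because the counts cannot separate the starts, which differ in sequence. Capitals mark CG dinucleotides, 18 before the upstream start and 8 before the downstream one, where the median over 32851 RefSeq promoter windows of that length was 6.
Entpd1 upstream start, RefSeq GRCm38.p6 chr19:40612116-40612365, plus strand: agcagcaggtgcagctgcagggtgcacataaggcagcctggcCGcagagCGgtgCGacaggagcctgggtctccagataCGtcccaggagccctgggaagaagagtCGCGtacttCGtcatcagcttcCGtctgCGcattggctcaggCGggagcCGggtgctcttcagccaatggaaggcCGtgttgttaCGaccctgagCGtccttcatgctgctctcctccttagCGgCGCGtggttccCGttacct
Entpd1 downstream start, RefSeq GRCm38.p6 chr19:40659520-40659769, plus strand: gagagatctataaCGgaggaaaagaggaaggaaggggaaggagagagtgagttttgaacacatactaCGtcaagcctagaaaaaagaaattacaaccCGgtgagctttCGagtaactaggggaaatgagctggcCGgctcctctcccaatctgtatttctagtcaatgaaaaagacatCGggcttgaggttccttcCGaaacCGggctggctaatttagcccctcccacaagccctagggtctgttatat
The G and C content was 62.4% in the first window and 47.2% in the second, against a median of 52.4%. Neither window held, on either strand, the letters TGTTTAC (a forkhead motif, in 3.17% of all windows), TGACGTCA (the cAMP response element, 1.55%), TGTGGTT (Runx, 4.4%) or GGGCGG (Sp1, 32.7%).

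Nt5e (ENSMUSG00000032420, chromosome 9, 88327197 to 88372092, plus strand) encodes CD73, which makes adenosine from AMP. Its level was 367, 381 and 324 CPM in WT 2, 6 and 20 and 321, 344 and 259 CPM in Exon2KO 2, 6 and 20. The genotypes overlapped, and the library numbered 20 was the lowest of each. The log2 fold change was -0.21 (95% interval -0.47 to 0.04, edgeR adjusted p = 0.536). Within the pairs Exon2KO had the lower level each time, with log2 differences of -0.20, -0.15 and -0.32. With the column number as a replicate block it was called lower, with a log2 fold change of -0.22, an SE of 0.06 and an edgeR adjusted p of 0.035, in a fit that called 9.72% of all tested genes; this added Nt5e to the 3 genes above.

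**Figure D2:**
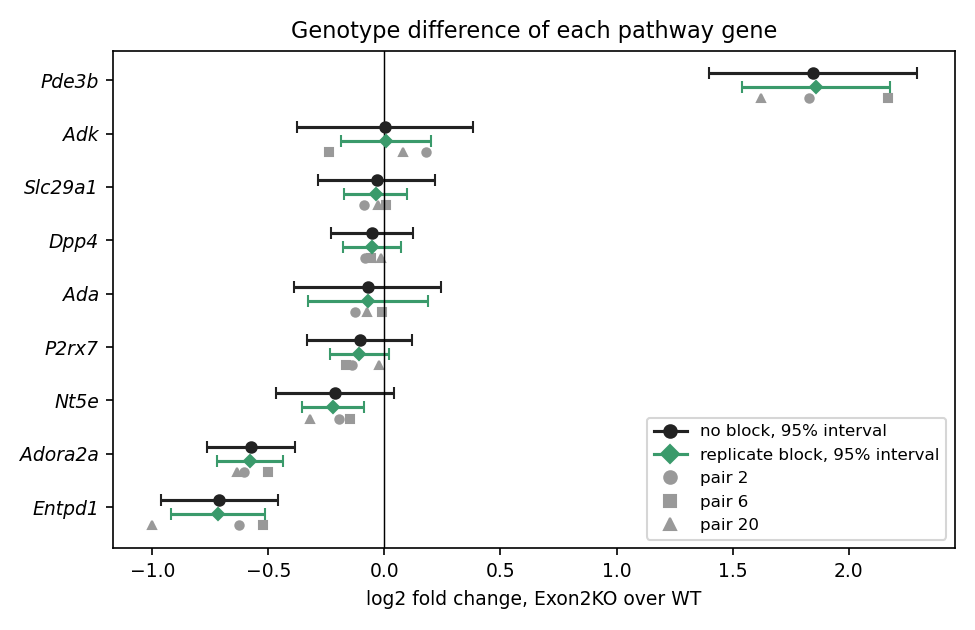
Log2 fold change of each gene, Exon2KO over WT, with its 95% interval from edgeR without a block (black circles) and with the column number as a replicate block (green diamonds). Grey symbols are the log2 differences within the pairs numbered 2, 6 and 20; all 3 lie below 0 for Entpd1, Adora2a, Nt5e, P2rx7, Ada and Dpp4 and above 0 for Pde3b, whose lowest is 1.62.

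Adora2a (ENSMUSG00000020178, chromosome 10, 75316877 to 75334784, plus strand) encodes the A2a receptor, through which adenosine raises cAMP in T cells. It was at 74.1, 78.6 and 74.3 CPM in WT 2, 6 and 20 and at 48.8, 55.6 and 47.9 CPM in Exon2KO 2, 6 and 20. Every Exon2KO library was below the WT libraries, which lay close together. The transcript decreased by 32.9% (edgeR log2 fold change -0.58 with an SE of 0.08, adjusted p = 0.0091). Pair differences were -0.60, -0.50 and -0.63. Without Exon2KO 2 the adjusted p rose to 0.0754, with the log2 fold change at -0.55; over all alternatives it ran from 4e-05 to 0.32. Adora2a supplied at least 99.5% of the CPM per kilobase summed over the 4 adenosine receptor genes in every library. Adora1 had 0 counts throughout, which allows a level of up to 0.141 to 0.169 CPM per library (3 counts), and Adora2b and Adora3 had at most 4 counts in a library, too few to test. The receptor sum was 24.8 ± 0.812 in WT and 16.6 ± 1.37 CPM per kilobase in Exon2KO (SD, n = 3).

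P2rx7 (ENSMUSG00000029468, chromosome 5, 122643911 to 122691432, plus strand) encodes the channel that opens at high ATP and can trigger death of T cells. It ranged from 230 to 276 CPM in WT and from 205 to 251 CPM in Exon2KO libraries. The log2 fold change was -0.11 (95% interval -0.33 to 0.12, edgeR adjusted p = 0.801), so a fall of the size seen in Entpd1 lies outside its interval. All 3 pairs gave a negative difference, from -0.16 to -0.022. P2rx7 and P2ry10, a receptor for lysophospholipids that is named with the P2 family, made up most of the CPM per kilobase of the 16 P2 receptor genes: P2rx7 took 36.8% to 44.75% in WT and 39.8% to 45.3% in Exon2KO libraries.

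Genes that remove adenosine did not pass the test. Slc29a1 (ENSMUSG00000023942, chromosome 17, 45585200 to 45599606, minus strand), the equilibrative transporter that carries adenosine across the membrane, ranged from 67.2 to 82.8 CPM in WT and 65.9 to 83.2 CPM in Exon2KO. Its log2 fold change was -0.034 (95% interval -0.29 to 0.22). Ada (ENSMUSG00000017697, chromosome 2, 163726584 to 163750239, minus strand), which deaminates adenosine to inosine, ranged from 12.3 to 14.7 CPM in WT and from 12.1 to 13.95 CPM in Exon2KO. Its log2 fold change was -0.071 (-0.39 to 0.25). The 2 genotypes covered nearly the same range for both genes.

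Adk (ENSMUSG00000039197, chromosome 14, 21052574 to 21448569, plus strand), the kinase that returns adenosine to AMP inside the cell, ranged from 29.6 to 43.0 CPM in WT and 33.5 to 45.4 CPM in Exon2KO. The log2 fold change was 0.0021 (95% interval -0.38 to 0.38), with pair differences of both signs (0.18, -0.24 and 0.079). Dpp4 (ENSMUSG00000035000, chromosome 2, 62330073 to 62412231, minus strand) encodes CD26, a surface peptidase. It ranged from 113 to 125 CPM in WT and 108 to 122 CPM in Exon2KO, with a log2 fold change of -0.053 (-0.23 to 0.12). The edgeR adjusted p-values of these 4 genes ran from 0.892 to 0.998. None of the 4 intervals reached the log2 fold change of Adora2a (-0.58) or Entpd1 (-0.71); those of Ada and Adk came nearest.

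Some of these genes differed between column numbers. In the fit with genotype and column number, Nt5e, Adk and Slc29a1 were called for the number (edgeR adjusted p = 0.0267, 0.0275 and 0.0276), as were 10.4% of all tested genes. Adk was highest in both libraries numbered 20 (43.0 and 45.4 CPM) and lowest in both numbered 2 (29.6 and 33.5 CPM). Slc29a1 was highest in both numbered 6 (82.8 and 83.2 CPM). Slc28a2, a concentrative transporter and the most abundant of the nucleoside transporter genes, followed the number too (edgeR adjusted p = 5.41e-07), from 50.2 in WT 6 and 48.7 in Exon2KO 6 to 24.9 in WT 20 and 20.7 CPM per kilobase in Exon2KO 20. Its log2 fold change between genotypes was -0.11, with an edgeR adjusted p of 0.963. No label says what the numbers stand for.

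Pde3b (ENSMUSG00000030671, chromosome 7, 114415281 to 114539251, plus strand) encodes a phosphodiesterase that cleaves cAMP and is inhibited by cyclic GMP. WT 2, 6 and 20 held 103, 65 and 121 of its counts and Exon2KO 2, 6 and 20 held 354, 314 and 311, which is 5.53, 3.58 and 5.68 against 19.7, 16.1 and 17.5 CPM. The lowest Exon2KO library was well above the highest WT library. Pde3b rose 3.59-fold (edgeR log2 fold change 1.84 with an SE of 0.20, adjusted p = 0.00253), with pair differences of 1.83, 2.17 and 1.62. This was the largest difference among the 9 genes, in the gene with the lowest level. Leaving out any single library kept the call, though it was lost without both libraries numbered 2 (edgeR adjusted p = 0.197). The log2 fold change ran from 1.66 to 1.96 with 1 library left out, and the adjusted p over all alternatives from 1.06e-14 to 0.197. Of the 4 Treg markers, Il2ra (-0.52), Ctla4 (-0.85) and Ikzf2 (-0.66 on the log2 scale) were called lower. The 4 T cell markers, 0 of them called by edgeR, summed to 1920 to 2151 CPM in WT and 2069 to 2390 CPM in Exon2KO libraries; Cd4 was at 632 to 724 CPM in WT and 746 to 819 CPM in Exon2KO, without overlap (edgeR unadjusted p = 0.0289, adjusted p = 0.315, and 0.0665 with the block). The 7 CD8 T and NK cell markers, 0 of them called by edgeR, summed to 25.1 to 27.0 CPM in WT and 26.6 to 38.8 CPM in Exon2KO libraries; their part in the Pde3b difference was not tested. Eomes made up 22.5 CPM of the sum in Exon2KO 6, and was at 7.002 and 7.15 CPM in the other two Exon2KO libraries, while Klrb1c was lower in Exon2KO without overlap (1.06 to 2.21 against 2.37 to 3.57 CPM).

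**Figure D3:**
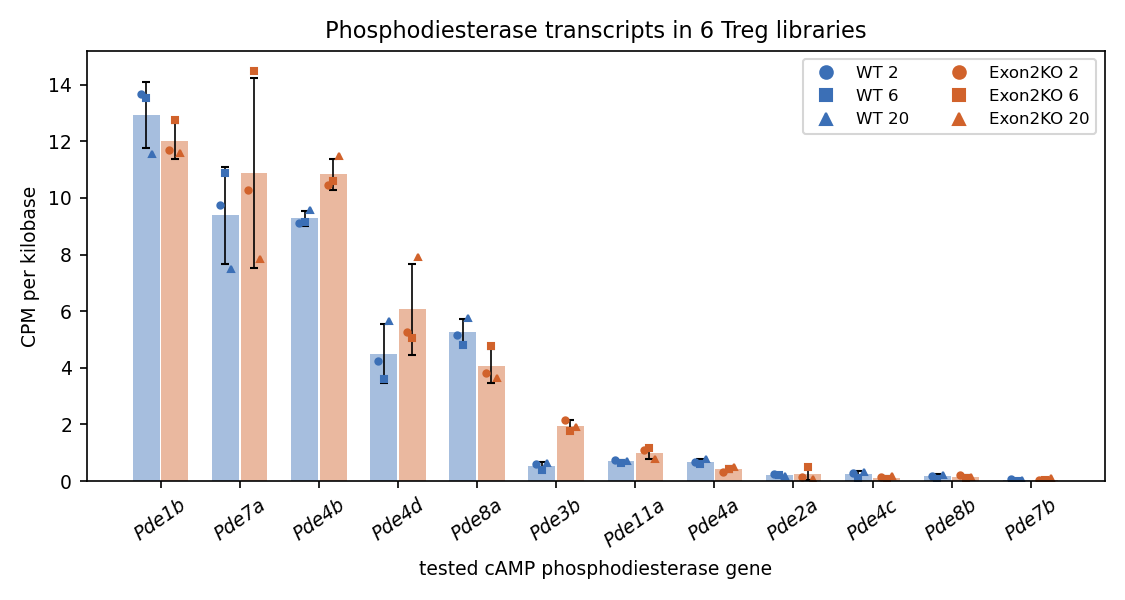
CPM per kilobase of the 12 tested cAMP phosphodiesterase genes, ordered by mean level; bars are means, error bars SD of 3 libraries, and symbols the libraries (WT blue, Exon2KO orange; circle 2, square 6, triangle 20). Pde3b, Pde4b and Pde11a (higher in Exon2KO) and Pde4a and Pde8a (lower) separate the genotypes; Pde3b stays below Pde1b, Pde7a, Pde4b, Pde4d and Pde8a in both.

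The rise of Pde3b took place in a family led by other genes, as the plot of phosphodiesterase levels shows. Its share of the CPM per kilobase summed over 16 cAMP phosphodiesterase genes was 1.355%, 0.892% and 1.45% in WT and 4.73%, 3.42% and 4.16% in Exon2KO libraries. The sum itself was 43.95 ± 0.900 in WT and 47.8 ± 3.34 CPM per kilobase in Exon2KO (SD, n = 3). Of the 11 other tested phosphodiesterases 0 were called by edgeR, DESeq2 or limma-voom and 3 had an unadjusted edgeR p under 0.05, as had 12.1% of all tested genes; 6 had positive and 5 negative log2 fold changes, and the range was -0.96 to 0.52. The genotypes did not overlap for 2 of them toward higher levels, Pde4b and Pde11a, and 2 toward lower, Pde4a and Pde8a, against 8.35% and 9.32% of all tested genes. Pde1b, the most abundant, was at 12.9 ± 1.18 in WT and 12.01 ± 0.646 CPM per kilobase in Exon2KO. With the replicate block, Pde4b (0.22, edgeR adjusted p = 0.0253) and Pde4d (0.43, edgeR adjusted p = 0.000735), which degrade cAMP in T cells, were called higher, as were 3.93% of all tested genes. A pseudogene of a ribosomal protein with 1940 counts lies within Pde4d, which had 7180, so its reads are less certain. Pde3a, the paralog of Pde3b, had 0 counts in all libraries.

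Beyond the 9 genes, 97 genes of purine and cAMP handling were listed, of which 62 had enough reads to test. Of these, 1 was called higher, Adcy6, and 2 were called lower, Alpl and Cd38, with a median log2 fold change of -0.022; over all tested genes 0.757% were called higher and 1.58% lower. With the replicate block 7 were called higher and 5 lower, where 3.93% of all tested genes were called higher and 5.79% lower.

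**Figure D4:**
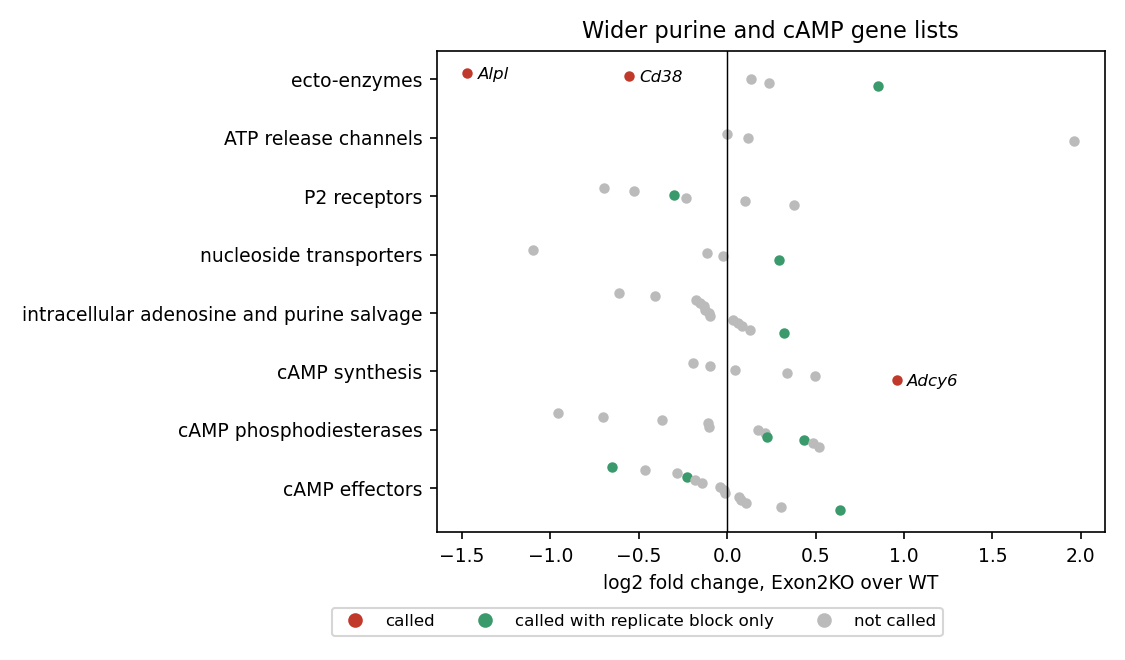
Log2 fold change, Exon2KO over WT, of the 62 tested genes of the wider lists, 1 row per list and 1 point per gene. Red points were called without a block, green points with the replicate block alone, and grey points in neither fit; Alpl and Cd38 lie left of 0 and Adcy6 right of it.

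Both calls toward lower levels were surface enzymes. Alpl encodes tissue-nonspecific alkaline phosphatase, which can also take phosphates from nucleotides. It was low, at 3.54, 4.52 and 3.28 CPM in WT and 1.72, 1.23 and 1.13 CPM in Exon2KO libraries (edgeR log2 fold change -1.47 with an SE of 0.30, adjusted p = 0.0369). The 6 stromal and endothelial markers summed to 1.93 to 4.46 CPM in WT and 0.611 to 2.31 CPM in Exon2KO, with Col1a1 the most abundant and Col3a1 at 0 counts throughout; their part in the Alpl difference was not tested. Cd38, which consumes NAD and feeds another route to adenosine, was at 23.9, 25.9 and 26.0 CPM in WT and 15.4, 18.8 and 17.3 CPM in Exon2KO libraries, and fell by 0.55 on the log2 scale, with an SE of 0.12 and an edgeR adjusted p of 0.0459. The 8 B cell markers summed to 40.2 to 45.9 CPM in WT and 33.4 to 35.6 CPM in Exon2KO libraries. Their part in the Cd38 difference was not tested. Alpl and Cd38 both lost the call in each fit that left out 1 library. Their log2 fold changes there were -1.68 to -1.32 for Alpl and -0.64 to -0.49 for Cd38. Cd38 also lost it with limma-voom (adjusted p = 0.0521) and with edgeR without robust estimation (adjusted p = 0.0543). Of the other 3 tested genes of this list, Art2b, which attaches ADP-ribose from NAD to surface proteins including P2rx7, was the most abundant at 37.1 ± 10.8 in WT and 40.8 ± 11.7 CPM per kilobase in Exon2KO (SD, n = 3); reads could be split with its close paralog Art2a. Art4 was called higher with the block alone (0.87, edgeR adjusted p = 0.0389).

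Among the receptor and transport genes of the wider lists, none was called by edgeR without the block, nor by DESeq2 or limma-voom. An unadjusted edgeR p under 0.05 was reached by 1 of 6 tested P2 receptors, 2 of 4 nucleoside transporters and 0 of 3 release channels, against the 12.1% of all tested genes. P2ry10 was at 51.5 ± 5.34 in WT and 41.9 ± 2.22 CPM per kilobase in Exon2KO, and was called lower with the block (-0.30, edgeR adjusted p = 0.005); the paralog P2ry10b was at 3.35 and 4.35 CPM per kilobase in the mean of each. Panx1, a channel through which cells release ATP, was at 13.7 ± 0.485 in WT and 13.7 ± 0.754 CPM per kilobase in Exon2KO. Slc29a3, a nucleoside transporter of internal membranes, was called higher with the block (0.30, edgeR adjusted p = 0.0241). The other nucleoside transporter with an unadjusted p under 0.05, Slc29a4, went lower (-1.10, edgeR unadjusted p = 0.0144). It was not called with the block (edgeR adjusted p = 0.0582).

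Inside the cell, none of the 13 tested genes of purine salvage was called by edgeR without the block, by DESeq2 or by limma-voom, and 2 had an unadjusted edgeR p under 0.05, against 12.1% of all tested genes. Nt5c, a cytosolic nucleotidase and the most abundant of them, was at 84.5 ± 11.2 in WT and 86.4 ± 7.16 CPM per kilobase in Exon2KO, and Armc7 overlaps it on the opposite strand. Ampd3, an AMP deaminase, was called higher with the block (0.32, edgeR adjusted p = 0.0342). Rnf141 overlaps it on the opposite strand with 1703 counts against 3045, and the sources used here do not say whether counting used strand. The other salvage gene with an unadjusted p under 0.05, Pnp, went lower (-0.41, edgeR unadjusted p = 0.0324). It was not called with the block (edgeR adjusted p = 0.0577).

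Genes that make cAMP or respond to it gave 1 call. Adcy6, an adenylyl cyclase, was at 29.9, 28.1 and 32.1 CPM in WT and 52.8, 46.5 and 76.0 CPM in Exon2KO libraries. It rose by 0.96 on the log2 scale, with an SE of 0.17 and an edgeR adjusted p of 0.0324, and Exon2KO 20 was the highest. Leaving out any 1 of the WT libraries or Exon2KO 2 raised its adjusted p to between 0.0827 and 0.154, at log2 fold changes of 0.91 to 1.02, and over all alternatives it ran from 2.61e-06 to 0.392. Adcy7 was the most abundant cyclase per kilobase, at 75.8 ± 14.7 in WT and 78.1 ± 6.90 CPM per kilobase in Exon2KO. None of the 14 effector genes was called by edgeR with the count filter and no block, and 3 had an unadjusted edgeR p under 0.05, against 12.1% of all tested genes. Without the count filter edgeR called Crem and Rapgef4, and DESeq2 called Crem alone. Prkar1a, a regulatory subunit of protein kinase A, was the most abundant at 100.3 ± 11.8 in WT and 90.8 ± 6.83 CPM per kilobase in Exon2KO. With the block Crem, a cAMP-responsive transcription factor, was called lower (-0.64, edgeR adjusted p = 0.00205), as was Crtc3, a coactivator of CREB (-0.23, edgeR adjusted p = 0.0209). Rapgef4, a cAMP-activated exchange factor, was called higher (0.65, edgeR adjusted p = 0.00392). The block fit called 9.72% of all tested genes.

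Profiles like those of the 3 called genes were sought among 9366 protein-coding genes with a mean of at least 5 CPM. Likeness was the mean absolute difference between centred log2 CPM values over the 6 libraries. Closest to Entpd1 were Stx11 (0.0468), Unc119 (0.0476) and Sh3bgrl (0.0589), and closest to Adora2a were Nol10 (0.0345), Tiam1 (0.0554) and Sh3bgrl2 (0.0579). Those closest to Pde3b were further off, with Tdrp at 0.198, Emp1 at 0.307 and Themis at 0.323. The measure is not scaled to the size of a difference, which was largest for Pde3b, nor to counting error. Tdrp, Emp1 and Themis rose by 1.85, 1.81 and 1.25 on the log2 scale, against 1.84 for Pde3b.

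The authors' deposited table gives log2 fold changes of -0.71 for Entpd1, -0.57 for Adora2a and 1.85 for Pde3b, with adjusted p-values of 3.3e-05, 5.25e-05 and 1.14e-14. For the other 6 genes the adjusted p in the authors' deposited table was at least 0.65.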

How the data were processed

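RNA of mouse Tregs was made into 6 libraries with a kit for Illumina sequencing, per the labels' protocols. The submitters' processing notes name HISAT2 2.0.5, StringTie 1.3.3b, featureCounts 1.5.0-p3, DESeq2 1.16.1 and the build mm10; settings, strand use and the annotation are not given in the sources used here. Per the file headers, the authors deposited whole-number counts per gene, not normalized, gene lengths, and 6 columns of FPKM, which were not used here. The authors also deposited group means as a scaled count signal, log2 fold changes and p-values.

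Counts were tested with edgeR 4.0.16 (R 4.3.3): filterByExpr, TMM scaling, robust quasi-likelihood fit, Exon2KO against WT, all 6 libraries, no covariate, Benjamini-Hochberg adjustment over all 14919 tested genes, threshold 0.05. The SE is the absolute log2 fold change divided by the square root of F, and intervals are 95%. CPM is on the TMM-scaled library size, and levels between genes are CPM per kilobase of the deposited gene length; 3 counts equal 0.141 to 0.169 CPM, which covers counting error only. P-values set a difference against the spread between these libraries within a genotype. With the block they set it against the spread that remains after the column number.

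Columns could be given a genotype but no titled sample. Libraries with the same column number deviated together (correlations across genes 0.273, 0.371 and 0.493), so the number was used as a replicate block beside the fit without it. No 2 libraries of a genotype agreed within sampling noise (chi-square per degree of freedom 8.87 to 26.4), and all 6 were counted. Positions follow the deposited table; all 9 are the same in GENCODE M21 (GRCm38). RefSeq promoters were found for 7 of the 9; Adora2a and Pde3b had none. Motifs were searched on both strands of the 250 bases before the start, in the windows of Entpd1 and Nt5e. The Nt5e window held GGGCGG (Sp1), as did 32.7% of all windows, and none of the other motifs. It lies within the gene as deposited, and is not printed.

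The 9 genes, the wider lists and the markers were chosen with earlier results of these data known. Named wider genes are those called with or without the block and the most abundant of each list, by mean CPM per kilobase where mean FPKM had been planned; a few others were named after their values were seen. The alternatives tried were testing every gene with a count, requiring 10 or more in all libraries, RLE and upper-quartile scaling, DESeq2 1.42.0, limma-voom (limma 3.58.1), no robust estimation, the block, leaving out each library, and leaving out each numbered pair. The test of the column number was added after seeing the data. The scripts were tested on simulated data. The level of 1 marker is not reported here.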

Additional observations from a re-analysis of the deposited data

How the results depend on the processing

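The 348 called genes became 617 without a count filter, 649 with DESeq2 and 1450 with the replicate block. With 1 library left out they ranged from 86 (without Exon2KO 2) to 314, with 131, 156 and 204 without WT 2, 6 and 20. They were 2, 46 and 362 without both libraries numbered 2, 6 and 20. The count of 3 called pathway genes was 4 with the block and 3 under the other settings that used all libraries. It ranged from 1 (without Exon2KO 2, where Pde3b remained) to 3 with 1 library left out, and was 0, 1 and 3 without both numbered 2, 6 and 20. The 3 called genes of the wider lists became 5 without a filter (Crem and Rapgef4 added) and 12 with the block, and 0 to 1 in the fits with libraries left out. With a pair left out, each genotype had 2 libraries. Without both numbered 2 the adjusted p was 0.334 for Entpd1, 0.32 for Adora2a and 0.197 for Pde3b, and without both numbered 6 it was 0.074, 0.0699 and 0.0384, at log2 fold changes of the same sign.

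Entpd1 (-0.82 to -0.57), Adora2a (-0.66 to -0.54), Pde3b (1.66 to 1.97), Nt5e (-0.31 to -0.11), P2rx7 (-0.18 to -0.030) and Dpp4 (-0.094 to -0.016) kept their direction in all 17 alternatives. Ada, Adk and Slc29a1 did not, nor did 5 of the 19 named wider genes. Adk was -0.0065 without a filter, -0.0075 with the strict filter, -0.010 with upper-quartile scaling and -0.00076 with limma-voom. It was -0.066 and -0.046 without both numbered 2 and 20. The median over the genes tested was 0.0084 in the main fit, -0.0030 without a filter and 0.0021 with the strict filter. With upper-quartile scaling and limma-voom that median was -0.0068 and 0.0083. Panx1 was 0.00072 with DESeq2 and 0.042 without both numbered 6, Nt5c -0.060 without both numbered 2, and Adcy7 -0.030 without both numbered 6. With 1 library left out, Adk ran from -0.16 to 0.11, Ada from -0.14 to 0.00018, Slc29a1 from -0.16 to 0.058, Panx1 from -0.047 to 0.027, Art2b from -0.093 to 0.35, Slc28a2 from -0.46 to 0.17, Nt5c from -0.027 to 0.15 and Adcy7 from -0.077 to 0.20. The other 14 named wider genes kept their direction. The cause was not tested. The block changed no call among the 9 genes other than that of Nt5e, and the common coefficient of variation between libraries went from 17.3% to 8.56%.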

Other observations

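The nearest tested protein-coding gene on each side of the 9 genes was examined after seeing the data. Of these 18 genes 1 was called, where 2.33% of all tested genes were. It was Gucd1, 16.3 kb beyond Adora2a, which was higher in Exon2KO (edgeR log2 fold change 0.76 with an SE of 0.09, adjusted p = 0.00422) where Adora2a was lower. Tctn3, which ends 133 bases before Entpd1, stood at -0.088 on that scale (edgeR adjusted p = 0.925). Cyp2r1, 10.4 kb beyond Pde3b, stood at 0.53 (edgeR adjusted p = 0.711), and Psma1 on the other side at 0.032 (edgeR adjusted p = 0.955).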
